A study of Mus musculus with 8 samples.

Results

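Receptor-type tyrosine phosphatases were followed in fibroblasts of the mouse colon, through 10 genes of the family: Ptpra, Ptprb, Ptprd, Ptpre, Ptprf, Ptprg, Ptprj, Ptprk, Ptprm and Ptprs. They were taken by name from the 30768 genes that the array's annotation names on rows of their own, where a gene with several rows would be represented by the row with the highest mean over the 8 arrays. Each of the 10 genes had 1 row, so no measured level had to decide between rows, and no row shared its values with another gene. All 10 passed the filter on dim rows (a value of at least 5.36, the median of all array values, in at least 4 of the 8 samples): 9 of them reached that value in 8 samples and Ptprb in 7. They stand among 17242 genes tested. The list was put together with earlier results of these data known, and its name singles out Ptpre, so Ptpre is described here without a test of its own.

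The cells came from the colon of wild-type C57BL/6J mice. They were gated by flow cytometry as lacking Epcam (epithelium), CD45 (leukocytes) and CD31 (endothelium) and as carrying gp38 (podoplanin), and were then split by CD90, the surface glycoprotein coded by Thy1. The CD90-negative population was measured in samples 13, 15, 17 and 19 and the CD90-positive population in samples 14, 16, 18 and 20, 1 array each. No agent or genetic change was applied to either population, the animals' ages are not given in the sources used here, and the 4 mice behind both populations cannot be matched to samples by any label. The p-values therefore speak of the spread among the 8 samples, part of which may be technical.

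Receptor-type tyrosine phosphatases cross the membrane once and take phosphate off tyrosines inside the cell, against the work of tyrosine kinases. Their outer parts resemble adhesion molecules, and the subfamilies differ in them. Class R4 (Ptpra and Ptpre) has a short glycosylated outer part and can activate Src family kinases by removing an inhibitory phosphate. Class R2B (Ptprk and Ptprm) binds its own kind on neighbouring cells, and class R2A (Ptprd, Ptprf and Ptprs, also called class IIa) binds heparan sulfate and synaptic adhesion proteins. Class R3 (Ptprb and Ptprj) carries fibronectin-like repeats only, and class R5 (Ptprg) carries a carbonic anhydrase-like domain that binds contactins.

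Values are log2 expression as deposited, given per sample or as mean ± SD over the 4 samples of a population, and a positive difference means a higher value in CD90-positive cells. The highest deposited value was 19.9, beyond the 16 of a 16-bit scanner, and folds are therefore stated on the deposited scale and are not ratios of RNA amounts. In bulk samples, fewer cells with a transcript and less transcript per cell cannot be told apart. The array's 5222 negative control rows had a median between 6.58 and 6.84 in the 8 samples. A value below that range has an uncertain size but is not shown to be absent. On average this control median was higher among CD90-negative arrays (6.815 ± 0.02) than among CD90-positive ones (6.644 ± 0.045). The bearing of that offset on small differences between the populations was not tested. Across tested genes, which are not independent replicates, r was 0.984 to 0.997 within a population and 0.952 to 0.967 between populations. Samples 13 and 14 stood apart by Xist, the RNA of X chromosome inactivation, at 16.16 and 16.27 against 5.89 to 9.32 in the other 6. Cwc22 split the samples elsewhere, at 7.86 to 9.43 in samples 13 to 16 and at 13.47 to 14.70 in samples 17 to 20. The mice were thus not alike in these genes. Neither gene was used to pair samples, and the main fit is unpaired. Thy1 itself was at 5.46 to 5.57 in CD90-negative and 7.03 to 8.11 in CD90-positive samples. The fibroblast markers Col1a1, Col1a2, Col3a1, Dcn, Lum, Pdpn, Fbln1, Col6a1 and Col6a2 had a mean level of 14.65 to 14.81 and 14.74 to 14.88 in the samples of the 2 populations. Their summed level, the log2 of the summed unlogged values, did not overlap, at 18.61 to 18.98 and 19.31 to 19.45. Of these 9 genes, 3 were called higher (Dcn, Lum and Fbln1) and 3 lower (Col1a2, Col6a1 and Col6a2) at a limma adjusted p under 0.05. Over all tested genes 14% were called higher and 15.7% lower.

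The family did not move as one. The 9 genes other than Ptpre held 5 that were higher in the CD90-positive population (Ptpra, Ptprd, Ptprf, Ptprj and Ptprm) and 1 that was lower (Ptprk), at a limma adjusted p under 0.05. The other 3 (Ptprb, Ptprg and Ptprs) did not pass. Over all tested genes 29.7% were called, 14% higher and 15.7% lower, so the 6 calls are read against that background and, the list being chosen with results known, are no evidence about the family as a class. The populations did not overlap in 5 of these 9 genes, where 32.3% of all tested genes did not. Over all 10 genes the median difference was 0.28, against -0.01 over all tested genes.

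**Figure D1:**
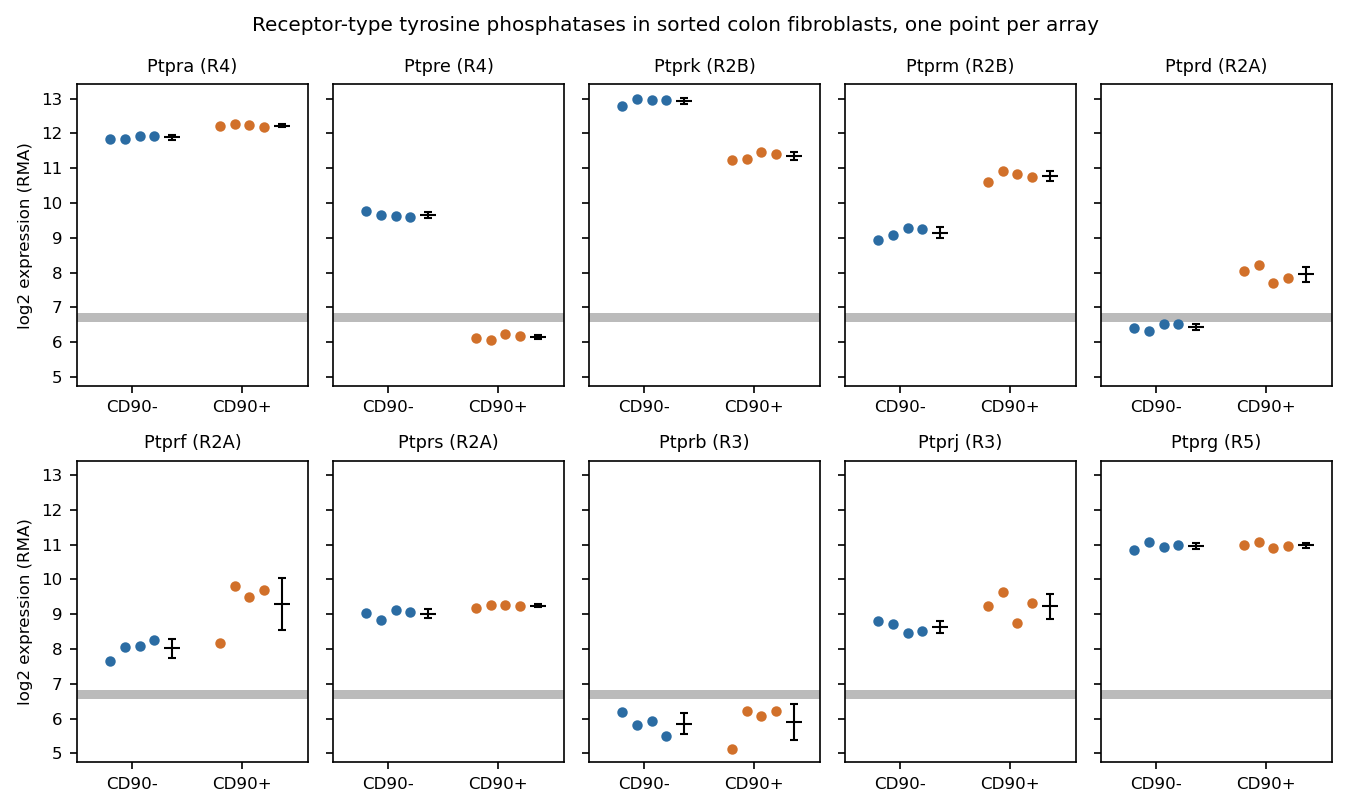
Log2 expression of the 10 phosphatase genes, each panel 1 gene with its subfamily in brackets, 1 point per array (blue CD90-negative, orange CD90-positive, samples in order of their number), with mean ± SD (n = 4) as black bars and the range of the negative control medians (6.58 to 6.84) as a grey band. Ptpre lies between 9.60 and 9.78 in CD90-negative and below the grey band in CD90-positive samples, while its relative Ptpra is above 11.8 in all 8.

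The sequences that lie directly upstream are shown for Ptpre and Ptprk, the members with negative differences, and for Ptpra, the relative of Ptpre in class R4. They are RefSeq sequences of build GRCm38.p6, the 250 bases before an annotated start on the plus strand, and capitals mark the GC box, the letters GGGCGG or CCGCCC. RefSeq's table held 13 such windows for 8 of the 10 genes, all but Ptprb and Ptprd. Only these 3 windows lie wholly before the annotated gene.
Ptpre, chr7:135537574-135537823: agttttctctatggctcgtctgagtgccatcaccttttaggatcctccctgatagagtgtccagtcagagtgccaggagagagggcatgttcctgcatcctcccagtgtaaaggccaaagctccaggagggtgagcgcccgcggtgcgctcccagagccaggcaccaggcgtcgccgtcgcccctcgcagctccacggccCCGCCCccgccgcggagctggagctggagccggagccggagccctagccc
Ptprk, chr10:28074570-28074819: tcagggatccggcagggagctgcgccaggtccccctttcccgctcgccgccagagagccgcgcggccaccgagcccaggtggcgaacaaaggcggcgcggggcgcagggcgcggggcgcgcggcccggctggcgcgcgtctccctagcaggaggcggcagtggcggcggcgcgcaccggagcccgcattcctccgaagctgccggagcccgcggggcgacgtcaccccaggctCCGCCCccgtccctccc
Ptpra, chr2:130450028-130450277: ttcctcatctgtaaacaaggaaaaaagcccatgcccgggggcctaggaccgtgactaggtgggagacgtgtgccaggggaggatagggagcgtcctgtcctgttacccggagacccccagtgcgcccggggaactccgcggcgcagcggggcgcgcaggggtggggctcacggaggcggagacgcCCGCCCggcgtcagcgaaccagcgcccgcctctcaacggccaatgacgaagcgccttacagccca
Each of the 3 windows held 1 GC box, which 32.7% of 32851 such windows of the mouse genome also hold. They had 17, 38 and 25 CpG pairs for Ptpre, Ptprk and Ptpra, where the median window had 6. Searches on both strands for a SOX motif (AACAAT), an AP-1 motif (TGANTCA) and an E-box (CACGTG) found 0 matches in these 3 windows; 9.42%, 6.75% and 6.02% of all windows hold one. A TEAD motif (GGAATG) was found once, in the Ptprk window (12.6% of all windows), and a CCAAT box (CCAAT) once, in the Ptpra window (33.8% of all windows). No searched motif was shared by Ptpre and Ptprk other than the GC box. A match is a description of letters and not of a bound site. Only the spellings given here were searched, so other forms of these motifs may be present in the windows. Ptpre has 3 annotated windows, and the array's single Ptpre row does not say which start was used. The Ptpre windows not shown did hold searched motifs: 1 AP-1 match at chr7:135605578-135605827 and 1 CCAAT box at chr7:135593231-135593480. These windows had 5 and 4 CpG pairs, below the median of 6.

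Ptpre was the member that differed most between the populations. Its product exists in a membrane-bound form and a cytoplasmic form and acts on Src family kinases and potassium channels. The 4 CD90-negative samples were at 9.78, 9.65, 9.62 and 9.60, and the 4 CD90-positive samples at 6.12, 6.07, 6.23 and 6.17. All CD90-negative samples were thus high and all CD90-positive samples low, with a gap between the populations far wider than the spread within either one. The means were 9.66 ± 0.080 and 6.15 ± 0.069, a difference of -3.51 (11.4-fold lower on this scale), and in size this exceeded 99.5% of the differences of all tested genes. The CD90-positive values lie below the negative control rows of every sample, so the difference has an uncertain lower end. The difference ranged from -3.54 to -3.46 over the 18 alternative settings. The list is named for Ptpre and was chosen with results of these data known. Its rank and its range are therefore descriptions and no evidence of their own.

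Ptpra, the closest relative of Ptpre, was bright in both populations. Its product is a widely expressed activator of Src family kinases. It was at 11.83, 11.84, 11.93 and 11.94 in CD90-negative samples and at 12.21, 12.28, 12.23 and 12.18 in CD90-positive samples. Every CD90-positive value was above every CD90-negative value, but by little: the difference was 0.34 (SE 0.058, 1.27-fold, limma adjusted p = 0.00234). The R4 genes therefore had differences of opposite sign, -3.51 for Ptpre and 0.34 for Ptpra; the contrast between them was not tested.

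The R2B genes also differed in opposite directions. Ptprk codes for a receptor that binds its own kind at cell contacts and acts on catenins and the EGF receptor. It was at 12.79, 12.99, 12.96 and 12.96 in CD90-negative and at 11.24, 11.27, 11.48 and 11.40 in CD90-positive samples. It was high in every CD90-negative sample and still far above the negative control rows in the CD90-positive ones. It fell by 1.58 (SE 0.077, 2.99-fold, limma adjusted p = 1.96e-06).

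Ptprm, whose product likewise binds its own kind and associates with cadherins, rose. The CD90-negative samples were at 8.94, 9.08, 9.28 and 9.26 and the CD90-positive samples at 10.60, 10.93, 10.84 and 10.74. The populations did not overlap. The difference was 1.64 (SE 0.10, 3.11-fold, limma adjusted p = 7.49e-06), the highest among the 10 genes. Ptprk and Ptprm kept their calls in all 18 alternatives, at -1.62 to -1.54 and 1.57 to 1.70.

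Within class R2A, 2 of the 3 genes were called higher. Ptprd, an organiser of neuronal synapses, was at 6.41, 6.31, 6.51 and 6.51 in CD90-negative and at 8.03, 8.20, 7.71 and 7.84 in CD90-positive samples. The CD90-negative values lie below the negative control rows and all CD90-positive values above them. It rose by 1.51 (SE 0.11, 2.85-fold, limma adjusted p = 1.85e-05), a size that is uncertain at its lower end.

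Ptprf codes for LAR, the founding member of the class, found at cell-matrix and cell-cell contacts of epithelia and other tissues. It was at 7.65, 8.06, 8.10 and 8.27 in CD90-negative samples and at 8.17, 9.83, 9.49 and 9.69 in CD90-positive samples. Sample 14 lay within the CD90-negative range and the other CD90-positive samples well above it, so the populations overlapped. The difference was 1.28 (SE 0.34, 2.42-fold, limma adjusted p = 0.0216). It was 1.65 without sample 14, and the call was lost without sample 16, 18 or 20 (differences of 1.1, 1.21 and 1.14, limma adjusted p = 0.0568, 0.0592 and 0.0615).

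Ptprs codes for a receptor of heparan and chondroitin sulfate proteoglycans. It was at 9.02, 8.84, 9.13 and 9.08 in CD90-negative and at 9.18, 9.28, 9.28 and 9.24 in CD90-positive samples. The populations did not overlap, yet lay close together. The difference of 0.23 (95% interval 0.053 to 0.40) missed the threshold (limma adjusted p = 0.0539) and passed it in 6 of 18 alternatives, among them both other scalings (0.26 after quantile normalization and 0.25 after median centring).

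The R3 genes have different known sites. Ptprb codes for VE-PTP, the phosphatase of endothelium that acts on the angiopoietin receptor Tek and on VE-cadherin. It was at 6.20, 5.83, 5.92 and 5.49 in CD90-negative and at 5.13, 6.22, 6.07 and 6.22 in CD90-positive samples, below the negative control rows in all 8. The populations overlapped, with sample 14 lowest of all. The difference was 0.052 with a 95% interval of -0.53 to 0.63 (limma adjusted p = 0.903); without samples 13 and 14 it was 0.42 and called (limma adjusted p = 0.036). The endothelial list had 1 of 7 tested genes called higher (Tek) and 0 lower, and 7 of its 9 measured genes lay below the negative control rows in every sample (Cdh5, Kdr, Tie1, Esam, Cldn5, Emcn and Erg). Its summed level, the log2 of the summed unlogged values, ran from 9.24 to 10.37 in CD90-negative and from 10.34 to 11.44 in CD90-positive samples. Tek, the brightest of its tested genes, weighs most in that sum. The mean level of the list overlapped, at 5.57 to 6.16 and 5.99 to 6.43. Among the CD90-positive samples, sample 14 had the highest summed level (11.44) and the lowest mean level (5.99). The part of endothelial RNA in the value of Ptprb was not tested.

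Ptprj codes for DEP-1 (CD148), a phosphatase linked to contact inhibition of growth that binds thrombospondin-1 and syndecan-2. It was at 8.81, 8.73, 8.46 and 8.51 in CD90-negative and at 9.23, 9.63, 8.75 and 9.31 in CD90-positive samples. Sample 18 lay within the CD90-negative range and the other CD90-positive samples above it. The difference was 0.60 (SE 0.17, 1.52-fold, limma adjusted p = 0.0308). The call was lost in 7 of 18 alternatives, each of which left out samples: sample 14, 15, 16, 17, 19 or 20, or samples 13 and 14 together, with limma adjusted p up to 0.0815. Of its named ligands, Sdc2 rose by 0.72 (limma adjusted p = 0.000371), and Thbs1 did not pass.

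Ptprg was bright and nearly level. It was at 10.86, 11.09, 10.93 and 10.99 in CD90-negative and at 10.98, 11.07, 10.91 and 10.97 in CD90-positive samples. The populations overlapped throughout. The difference was 0.019 with a 95% interval of -0.14 to 0.18 (limma adjusted p = 0.87), so a difference beyond 0.18 in either direction lies outside the interval. Its known ligands are contactins, described below with the other ligands.

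**Figure D2:**
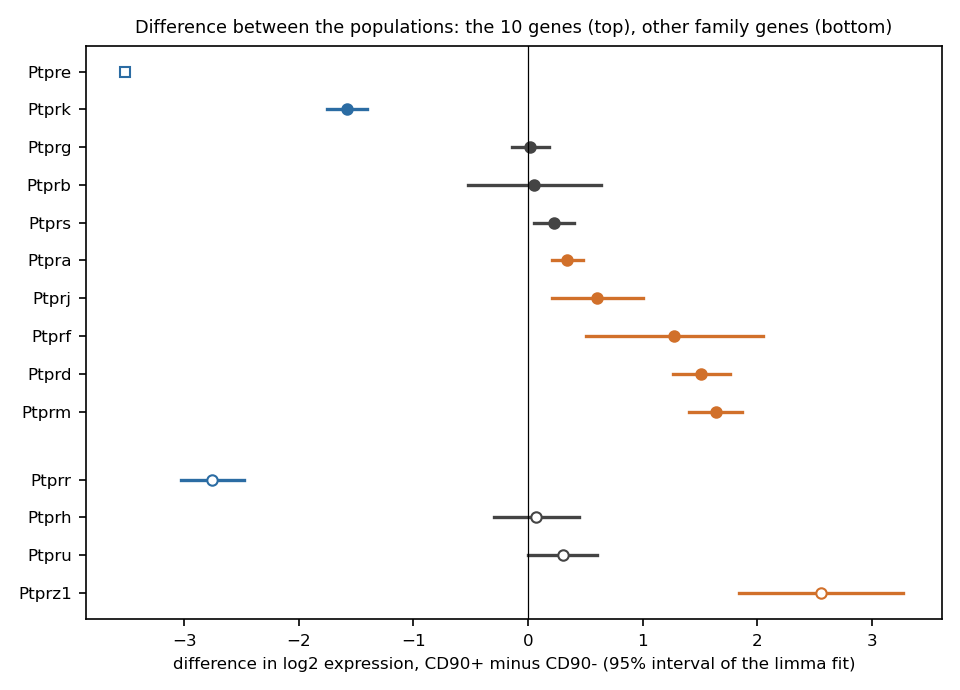
Difference in log2 expression, CD90-positive minus CD90-negative (horizontal axis), for the 10 genes (top, filled) and the 4 other tested receptor-type phosphatases (bottom, open); lines are 95% intervals of the limma fit, orange marks genes called higher, blue lower and grey neither. Ptpre, an open square without interval since it is not tested, lies at -3.51 and Ptprm at 1.64, with Ptprr at -2.75 and Ptprz1 at 2.56 among the other family genes.

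Of 11 further receptor-type phosphatases, 10 were measured and 4 passed the filter. Ptprr, which binds ERK-type MAP kinases and holds them inactive, was at 8.0, 7.81, 8.38 and 8.07 in CD90-negative and at 5.37, 5.18, 5.46 and 5.25 in CD90-positive samples. All CD90-positive values lay below the negative control rows, and the difference was -2.75 (limma adjusted p = 1.22e-06). Ptprz1, the R5 relative of Ptprg known from glia, was at 5.07, 4.85, 4.88 and 4.78 in CD90-negative and at 6.83, 8.34, 6.87 and 7.76 in CD90-positive samples. It rose by 2.56 (limma adjusted p = 0.000375) and only its CD90-positive values brought it past the filter. Ptpru and Ptprh did not pass the test. Ptprc, Ptpro, Ptprq, Ptprn, Ptprn2 and Ptprv lay under the filter, Ptprc (CD45, the leukocyte phosphatase of the sort gate) at 4.57 ± 0.12 and 4.75 ± 0.20.

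Beside the counts of cell type markers that follow stand 14% called higher and 15.7% called lower over all tested genes. Markers of enteric glia were also higher in the CD90-positive population. All 7 tested genes of that list were called higher and 0 lower (Cdh19, Kcna1, Sox10, S100b, Gfap, Foxd3 and Erbb3), where Gfap reached the filter in CD90-positive samples only; Foxd3 and Gfra3 lay below the negative control rows in every sample. The summed glial level was 8.82, 8.54, 8.38 and 8.49 in CD90-negative samples 13, 15, 17 and 19 and 10.68, 12.89, 11.59 and 12.43 in CD90-positive samples 14, 16, 18 and 20. Among the CD90-positive samples, sample 14, with the lowest glial level, had the lowest Ptprf, Ptprm and Ptprz1 but a Ptprd above that of samples 18 and 20 and a Ptprj above that of sample 18. Sample 16, with the highest glial level, was the highest of the 4 for Ptprf, Ptprz1, Ptprd, Ptprm and Ptprj, and also for Ptpra, Ptprg and Ptprs. The glial level was not alone in this order of samples 14, 18, 20 and 16. In that order Thy1 was at 7.03, 7.69, 7.94 and 8.11, and the summed leukocyte level at 9.80, 10.42, 10.54 and 10.79. The part of glial RNA in the values of the phosphatases was not tested. Of the epithelial markers 0 of 9 tested genes were called in either direction. Their summed level was 12.34 to 15.03 in CD90-negative and 12.98 to 14.94 in CD90-positive samples. Their mean level was 7.75 to 9.83 and 8.14 to 9.88. For the leukocyte list 3 of 5 tested genes were called higher and 0 lower, 8 of 10 measured genes lay below the negative control rows in every sample, Ptprc among them, and the summed level ran from 9.41 to 9.62 and from 9.80 to 10.79. Of the smooth muscle and pericyte list 5 of 10 genes were called higher and 4 lower, with a summed level of 16.03 to 16.28 and 13.79 to 15.54. Acta2, at a mean of 15.99 and 13.86, weighs most in that sum. The mean level of the list overlapped, at 8.89 to 9.38 and 8.49 to 9.33. Of the mesothelial list 2 of 5 were called higher, one of them (Upk3b) reaching the filter in CD90-positive samples only, and 0 lower, with 8.97 to 11.21 and 9.66 to 11.29; their part in the values of the phosphatases was likewise not tested.

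The known protein ligands and ectodomain partners moved in both directions. Of 13 tested, 4 rose and 2 fell, with a median difference of 0.072. The counts of this list and of those below stand beside 14% higher and 15.7% lower over all tested genes. The contactins, membrane-anchored adhesion proteins that bind Ptprg and Ptprz1, held Cntn6, which rose by 3.72, Cntn4 by 1.77 and Cntn1 by 5.71 (limma adjusted p = 0.000278, 0.000496 and 0.00387). Cntn1 was at 7.78 in sample 14 and at 12.69, 13.00 and 12.84 in samples 16, 18 and 20 (11.58 ± 2.53), and its difference without sample 14 was 6.98. The CD90-negative means of all 3 lay below the negative control rows, at 4.99, 5.11 and 5.87, and for Cntn6 and Cntn4 no CD90-negative sample reached the filter. Angpt1, the ligand of the Ptprb substrate Tek, fell by 1.34, from 10.07 ± 0.33 to 8.74 ± 0.17 (limma adjusted p = 0.000344), while Tek itself rose by 1.84, from 8.64 ± 0.75 to 10.48 ± 0.67 (limma adjusted p = 0.0109). Il34, a cytokine that also binds Ptprz1, fell by 2.33 (limma adjusted p = 0.00196).

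Heparan sulfate proteoglycans, the matrix and surface ligands of class R2A, held 4 genes that rose and 3 that fell of 12 tested, with a median difference of 0.067. The syndecan Sdc3 rose by 1.45, from 7.22 ± 0.12 to 8.67 ± 0.15 (limma adjusted p = 1.06e-05), and Col18a1, a basement membrane collagen with heparan sulfate chains, rose by 1.31. Sdc2 rose as given above, and Sdc1 by 1.02. Hspg2, coding for perlecan, fell by 0.58 (limma adjusted p = 0.000646), and the glypicans Gpc2 and Gpc6 fell by 0.40 each, Gpc2 below the negative control rows throughout and Gpc6 uncalled without sample 15, 16, 18, 19 or 20 (limma adjusted p up to 0.0951). Of 6 tested synaptic partners of the class, 2 rose (Ntrk3 and Il1rap, by 0.65 and 0.46) and 1 fell. That gene was Slitrk6, a leucine-rich repeat adhesion protein, at 15.48 ± 0.21 and 11.53 ± 0.65 (difference -3.95, limma adjusted p = 1.8e-05). Both calls among those that rose were lost without single samples: Ntrk3 without 15, 17 or 19 (limma adjusted p up to 0.0569) and Il1rap without any 1 sample other than 14 (up to 0.114). Of 13 measured synaptic partners 11 lay below the negative control rows in every sample, Ntrk3 among them. Cytoplasmic scaffolds that bind the inner part of R2A receptors had 0 genes higher and 3 lower of 7 tested (median difference -0.16). These were the liprins Ppfibp2 and Ppfia2, which fell by 1.81 and 0.71 (Ppfia2 below the negative control rows in every sample and uncalled without sample 17 or 18, limma adjusted p up to 0.053), and the kinase gene Mink1, which fell by 0.38.

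Inside the cell, Src family kinases and their regulators are the known targets of Ptpra and Ptpre. Of 11 tested, 3 rose and 4 fell (median difference -0.12). Fyn rose by 2.02, from 9.88 ± 0.23 to 11.91 ± 0.19 (limma adjusted p = 1.12e-05), and Frk fell by 1.01, from 10.51 ± 0.063 to 9.50 ± 0.062 (limma adjusted p = 7.1e-06). Bcar1, the Src substrate p130Cas, fell by 1.92, and Cblb, a ubiquitin ligase, rose by 0.68. The other calls were Ptk2b, which rose by 2.54, and Pag1 and Cbl, which fell by 0.52 and 0.56. All CD90-negative values of Ptk2b lay below the negative control rows, so the size of its rise is uncertain. The list is chosen by name and these are levels of RNA, not of kinase activity. Of 7 cadherins and catenins, substrates of Ptprk, Ptprm and other members, 1 rose and 3 fell (median difference 0.036). Cdh11, a cadherin of mesenchyme, fell by 1.97, from 15.81 ± 0.20 to 13.84 ± 0.19, Jup (plakoglobin) fell by 1.40 and Ctnnd1 (p120 catenin) fell by 0.76, while Cdh2 rose by 1.64 from a CD90-negative mean of 5.0, below the negative control rows and in no CD90-negative sample at the filter. Of 7 receptor tyrosine kinases named as substrates, 4 rose and 0 fell (median difference 0.59). Igf1r rose by 1.92, Fgfr1 by 0.71, Ret by 0.82 and Met by 0.59, the last 2 below the negative control rows in every sample. Ret reached the filter in CD90-positive samples only, so it could enter the count only as higher.

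Non-receptor tyrosine phosphatases share the catalytic domain and lack an outer part. Of 11 tested, 1 was higher and 7 were lower, with a median difference of -0.27. The shares over all tested genes were 14% and 15.7%. Ptpn9 fell by 1.12, from 10.52 ± 0.082 to 9.40 ± 0.055 (limma adjusted p = 4.82e-06), Ptpn14, a regulator of YAP, fell by 1.2, and Ptpn4 fell by 0.50. Ptpn3 rose by 0.81, from 7.90 ± 0.22 to 8.71 ± 0.060. The genes Ptpn11, Ptpn13 and Ptpn23, among the 7 that were lower, lost their calls when some single samples were left out (limma adjusted p up to 0.0685, 0.0778 and 0.0573). A test of whether these lists differ from the other genes was not made.

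**Figure D3:**
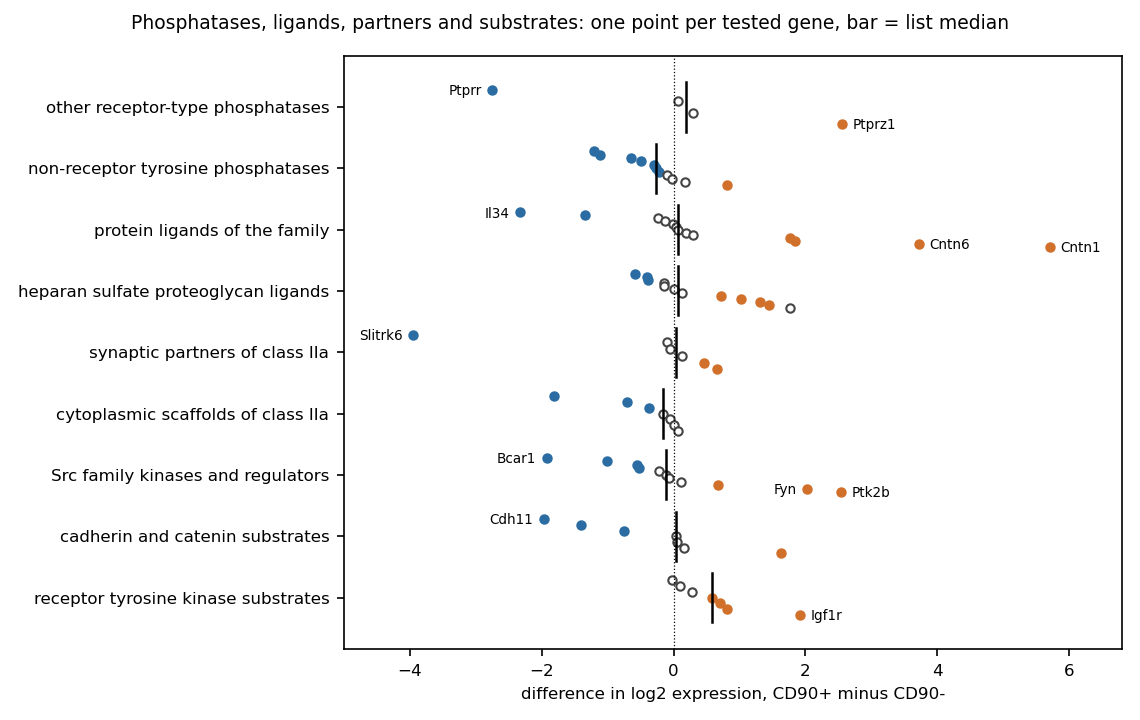
Difference in log2 expression, CD90-positive minus CD90-negative, of each tested gene of 9 lists of phosphatases, ligands, partners and substrates; filled points are called (orange higher, blue lower), open points are not, and bars are list medians. Cntn1 at 5.71 and Slitrk6 at -3.95 lie farthest out, and 7 of 11 non-receptor phosphatases are called lower, where 15.7% of all tested genes are.

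The genes whose profile over the 8 arrays lay nearest to that of Ptpre, after each gene's own mean was subtracted, were Sema3f, Septin4, Fam180a, Cacna1g and Col4a6, with root mean square differences of 0.136, 0.152, 0.174, 0.177 and 0.188 (log2). They code for a semaphorin, a septin, a protein of little-known function, a T-type calcium channel subunit and a collagen IV chain. Their differences ran from -3.73 for Col4a6 to -3.34 for Sema3f, around the -3.51 of Ptpre. All 5 share the step between the populations, so the measure describes that step more than any finer likeness.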

How the data were processed

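RNA of sorted colon fibroblasts was measured on 8 one-colour Affymetrix arrays, 4 per population; 2 ng of RNA was amplified per sample, per the labels' protocols. The authors deposited log2 values, 1 per array row, made with Affymetrix Expression Console 1.1 and RMA, per the submitters' processing notes; settings and genome build are not given in the sources used here. Of 72688 rows, 6732 were controls. The array's annotation, with symbols updated through RefSeq (GRCm38.p6), named 1 gene for 31245 rows, several for 1505 and none for 33206. The 17242 genes with at least 5.36 (the 50th percentile) in at least 4 samples were fitted with limma 3.58.1 (lmFit, eBayes; R 4.3.3) in a two-sided test at a threshold of 0.05, p-values being adjusted over all tested genes by the Benjamini-Hochberg method. The fit was tested on simulated data, where differences of 0.5, 1 and 2 (log2) were called in the right direction for 41.9%, 87.3% and 98.5% of changed genes. Of 158 simulated calls, 4 fell on unchanged genes. A gene that did not pass is therefore not shown to be level. Array number limits the precision. No explanation of a difference was tested.

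The members and lists were chosen with earlier results of these data known. Named were all members, the top 4 genes of each list by p, known partners of called members, and the 5 genes nearest to Ptpre in profile; genes that complete a count of 5 or fewer were chosen after their values were seen. The promoter windows and motifs were also chosen after values were seen. Alternatives changed the filter, normalization, variance model, array weights, choice of row, block and samples. Plots used matplotlib 3.10.9 (Python 3.11.15).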

Additional observations from a re-analysis of the deposited data

Results flagged for a closer look

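Among 20 sets of 4 samples (10 genes in each population), 2 held a sample far from the other 3 by Dixon's test; chance marks about 1 in 20 sets. Ptprb was at 5.13 in CD90-positive sample 14, while samples 16, 18 and 20 ran from 6.07 to 6.22, all of them below the negative control rows. Ptprk was at 12.79 in CD90-negative sample 13, while samples 15, 17 and 19 ran from 12.96 to 12.99, a gap far smaller than its difference of -1.58 between the populations.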

How the results depend on the processing

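Across 18 alternatives, Ptpra, Ptprd, Ptprk and Ptprm kept their direction and their call, with limma adjusted p up to 0.0092, 0.000562, 5.8e-05 and 9.75e-05. When 1 sample was left out, the genes other than Ptpre called higher numbered 3 to 5, with 3 without sample 16 or sample 20, where Ptprf and Ptprj were lost. The gene called lower was 1 in every alternative. Uncalled differences near 0 changed sign: Ptprb lay between -0.072 and 0.31 and Ptprg between -0.016 and 0.059 when single samples were left out (Ptprb at -0.050 without sample 16 or 20 and -0.001 without 18; Ptprg at -0.011 without 16), and Ptprg was at -0.002 with array weights and at -0.016 without samples 13 and 14. Neither gene was called when a single sample was left out, and Ptprg was called in no alternative. Ptprb was called without samples 13 and 14 (0.42, limma adjusted p = 0.036). The cause was not tested. With a block of consecutive title numbers, a pairing the labels do not state, 5 were higher and 1 lower, as without it. Of the 78 tested genes of the 9 lists, 20 rose and 24 fell, and 16 to 24 and 20 to 25 in the alternatives. Values below the negative control rows limit what can be said of Ptprb, and of Ptpre and Ptprd in 1 population.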
